A study of Mus musculus with 4 samples.

Results

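The genes described here act in adrenergic signalling: the receptors Adra1a, Adra1b, Adrb1 and Adrb3, the receptor kinase Grk5, and the adenylyl cyclases Adcy5 and Adcy6. They were chosen by name, and every probe set that the platform annotation lists under 1 of these symbols was taken. Of the 7 genes, 4 had a probe set under their own symbol, with 8 probe sets in all, among 18193 genes and 45037 probe sets. These were Adra1b, Grk5, Adcy5 and Adcy6. For Adra1a, Adrb1 and Adrb3 no probe set was listed under 1 symbol, so 3 of the 4 receptors were not analysed here.

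Transcript levels in mouse tissue were read on 4 oligonucleotide arrays, 1 for each genotype (d/d and f/f) in heart and in muscle. The d/d mice are homozygous for a floxed MnSOD gene (Sod2) and carry an MCK-Cre transgene, which deletes it in heart and muscle. The f/f mice are homozygous for the same floxed gene and serve as controls. MnSOD converts superoxide to hydrogen peroxide in mitochondria. MCK-Cre expresses Cre selectively in muscle tissues per the labels, so the other cells of a heart or muscle are not targeted by design. The age of the animals, the muscle taken and the number of animals behind a sample are not given in the sources used here. With 1 array per group no difference has a replicate check, and none has a p-value.

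Noradrenaline and adrenaline reach the heart through sympathetic nerves and the blood and bind adrenergic receptors on muscle cells. Beta receptors act through the stimulatory G protein on adenylyl cyclase, which makes cyclic AMP. Cyclic AMP activates protein kinase A, which phosphorylates calcium channels, phospholamban and troponin I and so raises the rate and force of the beat. Receptors of the alpha-1 class act through Gq proteins on phospholipase C. G protein-coupled receptor kinases (GRKs) phosphorylate active receptors, which lets arrestins bind and ends the signal. In failing human hearts this pathway is known for loss of beta receptors and for raised GRK activity.

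Values are intensities in arbitrary units after the arrays were scaled to a common trimmed mean. Signals under 7.51, the floor, were set to it before log2 was taken. Between 58.0% and 61.1% of probe sets lay above the floor on each array. A gene was counted as past 2-fold when it differed by at least that much and its higher signal exceeded the floor. How far probe sets of 1 gene disagree served as a yardstick, and the SD of their log2 differences was 0.39 in heart and 0.40 in muscle. It measures disagreement between probes, not between animals. The cardiac marker Tnnt2 read 7032 and 6623 in d/d and f/f heart, against 53.8 and 147 in d/d and f/f muscle. The fast-fibre marker Actn3 was at the floor in both hearts and read 10013 and 8430 in d/d and f/f muscle. All 4 probe sets of Sod2 were lower in d/d than in f/f heart, by 0.21 to 1.22 on the log2 scale. The brightest differed by -0.274 there and the next by -0.214, both within the yardstick. In d/d muscle 3 of the 4 were lower than in f/f muscle, at -0.139, -0.305 and -0.437. Of these only the last, from the dimmest probe set, is beyond the yardstick, and the brightest was higher, at 0.055. The position of these probe sets against the deleted stretch was not analysed here. The heart failure marker Nppb read 4873 in d/d heart, against 1945 in f/f heart.

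In d/d heart the receptor transcript Adra1b was lower and the receptor kinase transcript Grk5 higher than in f/f heart, while the cyclases Adcy5 and Adcy6 were lower by smaller amounts. The members therefore did not all differ in 1 direction. Of the 4 measured members, 1 was at least 2-fold lower (Adra1b), against 4.22% of the 13836 genes measured in heart. None was at least 2-fold higher by its brightest probe set, against 3.94% of those genes. Of 6 measured probe sets of the members, 2 were past 2-fold, against 8.20% of all measured probe sets. At 1.5-fold, Grk5 also passed, making 2 of 4 members, against 24.5% of genes. In bulk tissue, fewer cells of a type and less RNA per cell cannot be told apart.

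**Figure D1:**
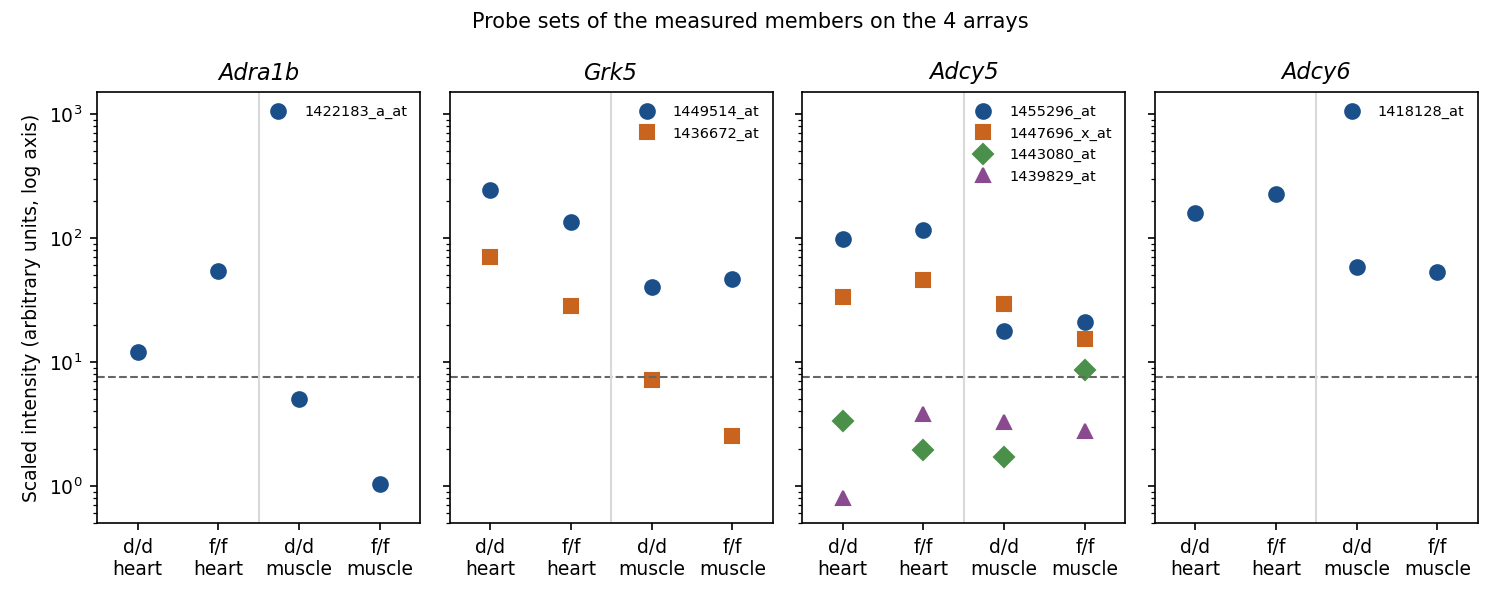
Scaled intensity (log axis, arbitrary units) of the 8 probe sets of Adra1b, Grk5, Adcy5 and Adcy6 in each genotype and tissue, with d/d left of f/f and heart left of muscle, 1 point per array, with the floor of 7.51 as a dashed line. Adra1b is lower in d/d than in f/f heart, both Grk5 probe sets are higher in d/d heart, and 2 of the Adcy5 probe sets lie under the floor apart from 8.59 for 1 of them in f/f muscle.

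Adra1b encodes an alpha-1 adrenergic receptor, which couples to Gq proteins. Its 1 probe set read 12.1 in d/d heart, against 54.4 in f/f heart, 4.49-fold lower in d/d heart (log2 difference -2.17). It read 5.01 in d/d muscle, against 1.03 in f/f muscle, both under the floor, so no difference can be given for muscle. The order of the levels was f/f heart, then d/d heart, with the muscles not separable below them. The d/d heart signal lay less than 2-fold above the floor, and the size of the difference moved with the handling of low signals. With the floor at the 60th percentile it was -1.52, and with 16 added to every signal and no floor it was -1.32.

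Among the other receptor genes listed, the array annotation held only Adra2c, an alpha-2 receptor, which couples to inhibitory G proteins. Of its probe sets the brightest read 5.92 in d/d heart, under the floor, against 12.1 in f/f heart, which is at least 1.61-fold lower. In muscle it read 9.03 in d/d, against 1.49 in f/f, at least 1.20-fold higher. Its other 3 probe sets were under the floor on all 4 arrays.

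Grk5 encodes a membrane-bound kinase of active receptors, which in cardiac muscle cells also enters the nucleus and phosphorylates a histone deacetylase. Its brighter probe set read 242 in d/d heart, against 133 in f/f heart, 1.81-fold higher in d/d heart (log2 difference 0.86). The dimmer one read 70.7 in d/d heart, against 28.4 in f/f heart, 2.49-fold higher (1.32). Both differences were beyond the probe set yardstick of 0.39 and ran the same way. In muscle the brighter probe set read 40.4 in d/d, against 47.0 in f/f, a log2 difference of -0.22, which lies within the yardstick. The dimmer one was under the floor in both muscles, at 7.20 in d/d and 2.52 in f/f. The order of the levels was d/d heart, f/f heart, then the muscles, which could not be separated from each other.

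The relatives of Grk5 differed less in heart. Grk6 read 75.6 in d/d heart, against 59.3 in f/f heart (log2 difference 0.35), and its other 2 probe sets differed by 0.55 and -0.15. Grk3 read 56.7 in d/d heart, against 65.6 in f/f heart (-0.21), with its other probe sets at -0.09 and -0.33. Grk1, the kinase of rhodopsin in the retina, was under the floor on all 4 arrays, and Grk4 was under it in both hearts. The arrestin genes Arrb1 and Arrb2, whose products bind phosphorylated receptors, differed by 0.50 and 0.14. Over the kinases and arrestins, 4 of 5 measured genes lay above 0 in heart, with a median log2 difference of 0.35 against -0.05 over all genes. Over the settings tried this median ran from 0.145, without probe sets that can share sequence, to 0.425, with the floor at the 20th percentile. In heart 0 passed 2-fold, against 3.94% of all genes higher and 4.22% lower. In muscle 4 of 6 lay below 0, and the median was -0.29 against -0.003 over all genes. There 0 passed 2-fold, against 2.64% of all genes higher and 3.25% lower.

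Adcy5 and Adcy6 encode the main adenylyl cyclases of cardiac muscle cells, both of them inhibited by calcium and by inhibitory G proteins. Adcy6, with 1 probe set, read 160 in d/d heart, against 226 in f/f heart, 1.41-fold lower in d/d heart (log2 difference -0.50). That is beyond the yardstick and short of 1.5-fold. With the arrays scaled to a common median, the heart difference was -0.33, within the yardstick of 0.39. In muscle Adcy6 read 58.5 in d/d, against 53.3 in f/f (0.13), within the yardstick. Its order by the main scaling was f/f heart, d/d heart, then the muscles, not separable from each other.

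By its brightest probe set Adcy5 read 98.7 in d/d heart, against 116 in f/f heart, 1.17-fold lower in d/d heart (-0.23), within the yardstick. Another probe set, which can share sequence with other genes, read 33.5 in d/d heart, against 45.8 in f/f heart (-0.45). In muscle these probe sets disagreed. The brightest read 17.6 in d/d, against 20.9 in f/f (-0.25), and the other read 29.1 in d/d, against 15.2 in f/f (0.93). Of the remaining 2, 1 was above the floor only in f/f muscle, at 8.59, and 1 was under it on all 4 arrays. By the brightest probe set the hearts lay above the muscles, and neither the hearts nor the muscles could be separated by genotype.

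Among the other cyclases, Adcy7, a cyclase known as abundant in blood-forming cells, was higher in d/d heart by all 3 of its probe sets. They read 203, 78.2 and 60.6 in d/d heart, against 51.9, 19.8 and 15.7 in f/f heart, which is 3.91-fold, 3.95-fold and 3.85-fold higher. In muscle the same probe sets differed by -0.82, -0.20 and at most -1.51 on the log2 scale. The last is a bound, with d/d muscle under the floor, and the -0.20 lies within the yardstick. Adcy9, a cyclase that responds weakly to forskolin, was lower in d/d heart on all 4 of its probe sets, by 1.62-fold to 1.81-fold. Its brightest read 85.8 in d/d heart, against 141 in f/f heart, and in muscle it differed by -0.22. Adcy1 read 21.6 in d/d heart, against 31.6 in f/f heart (-0.55), and Adcy2, Adcy3 and Adcy4 differed by 0.06, 0.23 and 0.03. The value of Adcy3 came from a probe set that can share sequence. Its other measured probe sets ran the other way, at -0.303 and at most -0.405, the latter a bound with d/d heart under the floor. Adcy10, the soluble cyclase, read 14.9 in d/d heart and was under the floor in f/f heart, at least 1.98-fold higher. Adcy8 was under the floor in both hearts. Of 9 measured cyclases in heart, 1 was at least 2-fold higher (Adcy7), against 3.94% of all genes, and 0 were lower, against 4.22%. Their heart median was 0.03 against -0.05 over all genes, but its sign depended on the processing. A 60th percentile floor gave -0.231, against -0.022 over all genes. Leaving out probe sets that can share sequence gave -0.231, against -0.058. Scaling to the median gave 0.199, against 0.118. In muscle 0 of 9 passed 2-fold, against 2.64% of all genes higher and 3.25% lower, and the median was 0.12. With so few genes, counts of 0 do not set the cyclases apart.

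**Figure D2:**
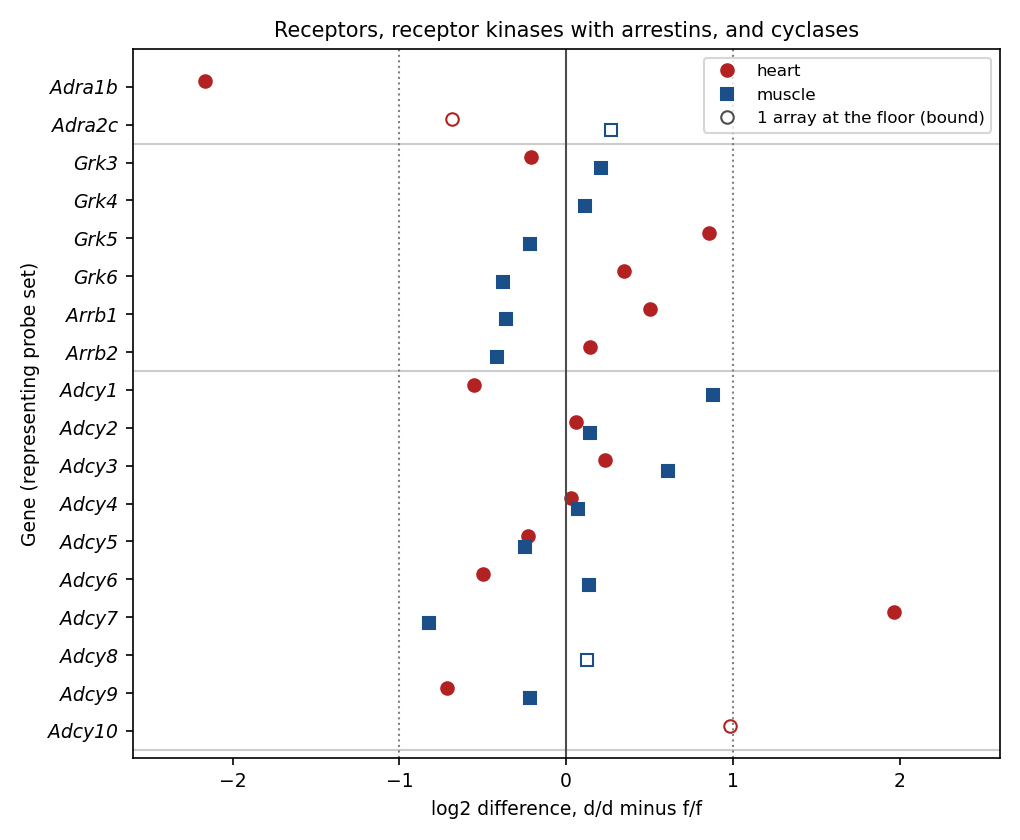
Log2 difference, d/d minus f/f, of the brightest probe set of each measured receptor, receptor kinase, arrestin and cyclase gene in heart (circles) and muscle (squares), with open symbols where 1 array was at the floor and dotted lines at 2-fold. Adra1b (-2.17) and Adcy7 (1.97) lie outside the dotted lines in heart, and no gene does in muscle.

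Muscle gave a difference for 3 of the members, since Adra1b was under the floor there. Of these 3 members, 0 were past 2-fold by the brightest probe set, against 2.64% of 14256 genes at least 2-fold higher and 3.25% at least 2-fold lower. Of 5 measured probe sets of the members, 0 were past 2-fold, against 6.53% of all measured probe sets. With backgrounds this low and so few members, a count of 0 does not set them apart from other genes. The log2 differences of Grk5, Adcy5 and Adcy6 in muscle were -0.22, -0.25 and 0.13, each within the yardstick of 0.40, while the other bright probe set of Adcy5 stood at 0.93, beyond it. Over the settings tried Adcy5 ran from -0.34 to 0.01. The upper end came with the median over probe sets, and under every other setting the difference was below 0. No replicate spread is at hand to set an interval on these differences.

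The members were more abundant in heart than in muscle. In d/d mice 3 of 4 were at least 2-fold higher in heart than in muscle, against 15.1% of the 14124 genes measured there. In f/f mice all 4 were, against 12.1% of 14364 genes. None was at least 2-fold lower in heart in either genotype, against 10.5% of genes in d/d and 8.30% in f/f mice. Grk5 was 5.99-fold higher in heart than in muscle in d/d mice and 2.84-fold higher in f/f mice. Adcy5 was 5.61-fold and 5.56-fold higher by its brightest probe set in d/d and f/f mice, and 1.15-fold and 3.01-fold by the other. Adcy6 was 2.73-fold higher in d/d mice and 4.24-fold in f/f mice. Adra1b was at least 1.61-fold higher in d/d mice and at least 7.24-fold higher in f/f mice, the muscle signals being under the floor. The gap between the tissues was wider in d/d than in f/f mice for Grk5 and narrower for Adcy6. For Adra1b both gaps are lower bounds and cannot be ranked.

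Genes with a like pattern over the 4 arrays were found by the Euclidean distance between log2 values centred on each gene's own mean. Among 11936 genes, those nearest to Grk5 were Msn, which encodes the membrane linker moesin, at 0.11, and Chchd6, a gene of mitochondrial cristae, also at 0.11. Msn read 989 in d/d heart, 549 in f/f heart, 171 in d/d muscle and 211 in f/f muscle. Nearest to Adcy6 were Jup, the junction protein plakoglobin, at 0.06 and Fig4, a phosphoinositide phosphatase, at 0.12. Jup read 181 in d/d heart, 242 in f/f heart, 63.7 in d/d muscle and 59.0 in f/f muscle. Nearest to Adcy5 were Decr2, a peroxisomal reductase of fatty acid breakdown, at 0.14 and Mfhas1 at 0.19. Decr2 read 2.20 in d/d muscle, under the floor, and 8.59 in f/f muscle, so its distance rests on the floor value there. With only 4 arrays such matches are common, and 93, 156 and 65 genes lay within 0.5 of Grk5, Adcy6 and Adcy5 in that order. Adra1b was above the floor on too few arrays for this comparison.

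Around the members, 164 genes of the pathway were listed, of which 130 were measured in heart. In d/d heart 7 of these were at least 2-fold higher (5.38%) and 10 at least 2-fold lower (7.69%), Adra1b and Adcy7 among them, and the median log2 difference was 0.02 against -0.05 over all genes. These shares stand beside 3.94% higher and 4.22% lower over all genes. When the arrays were scaled to a common median, the median of all genes in heart moved to 0.12. Of all genes past 2-fold in heart, 67.7% were then higher, against 48.3% before, and of the pathway genes 10 were higher and 6 lower. The brightest probe set of Grk5 then stood at 1.03 and passed 2-fold, a shift close to that of all genes.

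Among the receptors' partners, Rgs2 encodes a protein that turns off Gq proteins, and it was lower in d/d heart on all 4 of its probe sets and past 2-fold on 3. Those 3 read 96.4, 108 and 73.2 in d/d heart, against 295, 310 and 262 in f/f heart, which is 3.06-fold, 2.86-fold and 3.58-fold lower. In muscle the brightest differed by 0.70 in the other direction. Of 14 RGS genes measured in heart, Rgs2 alone passed 2-fold, against 3.94% of all genes higher and 4.22% lower. The median of the list was -0.005 against -0.05 over all genes. The genes of the G proteins that carry these receptors' signals were named for their role after their values had been seen. Gnas, the stimulatory alpha subunit, read 2674 in d/d heart, against 3146 in f/f heart (-0.23), and Gnaq and Gna11, the Gq subunits, differed by 0.20 and -0.02 on their brightest probe sets. The other measured probe sets of Gnaq in heart disagreed, from -0.47 to 0.92. Of 26 measured G protein genes, 20 lay above 0 in heart, with a median of 0.19 against -0.05 over all genes. Gng4 and Gng8 were at least 2.32-fold and at least 2.95-fold higher in d/d heart, with f/f heart under the floor. Gna14 was 2.19-fold lower, at 11.4 in d/d heart against 24.9 in f/f heart. These 3 signals were near the floor, and each lost its place past 2-fold under 2 to 5 of 8 other settings.

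Among other receptors of the heart, 3 passed 2-fold upward in d/d mice. F2r, the thrombin receptor, read 910 in d/d heart, against 361 in f/f heart, 2.52-fold higher, and its dimmer probe set gave 3.02-fold. Ednrb, an endothelin receptor, read 331 in d/d heart, against 128 in f/f heart, 2.59-fold higher, and its remaining probe sets gave 1.56-fold and 1.53-fold. Ptger4, a prostaglandin E2 receptor, was 2.23-fold higher, at 135 in d/d heart against 60.3 in f/f heart, and its dimmer probe set gave at least 2.49-fold. The dopamine receptor Drd2 was under the floor in d/d heart, against 24.9 in f/f heart, at least 3.32-fold lower. Of the 15 such receptors on the array only 7 were measured, with 5 above 0, 3 of them past 2-fold, 1 past 2-fold below 0, and a median of 0.53. Over all genes 3.94% were at least 2-fold higher and 4.22% at least 2-fold lower, and the median was -0.05. With 16 added to every signal and no floor, which keeps every gene, the median of the receptors was 0.089.

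**Figure D3:**
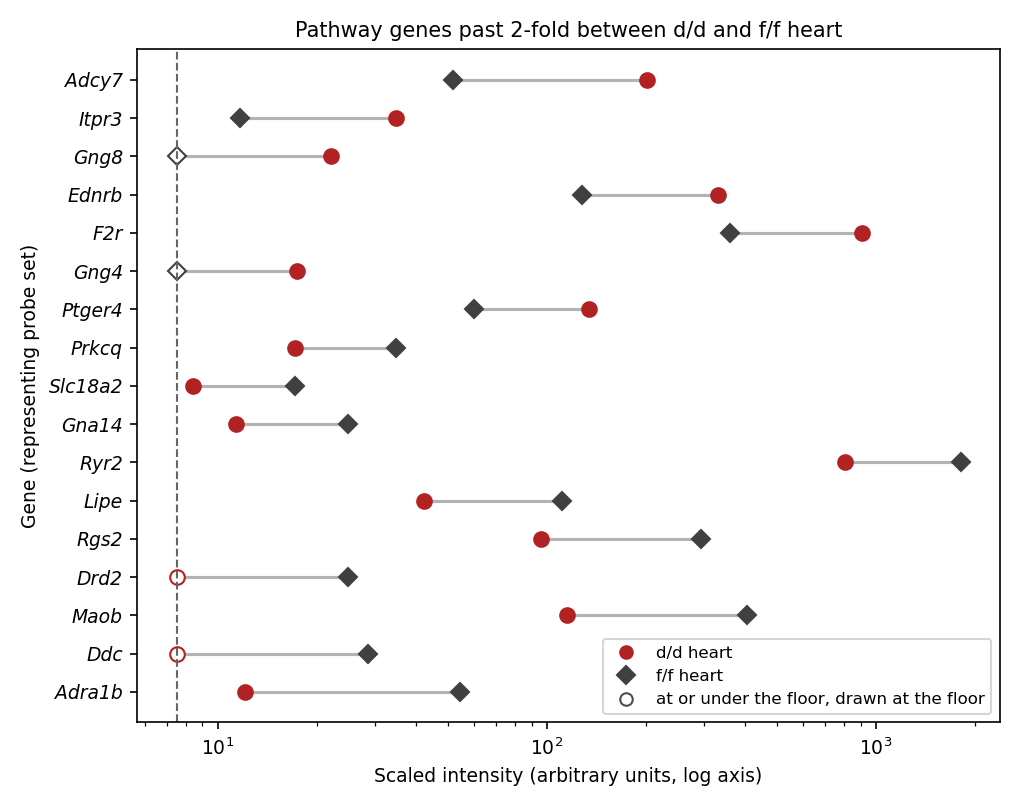
Scaled intensity (log axis, arbitrary units) of the 17 pathway genes past 2-fold between d/d heart (circles) and f/f heart (diamonds), brightest probe set of each, ordered by log2 difference, with the floor dashed. Adcy7 is at the top with 203 in d/d against 51.9 in f/f heart, and Adra1b at the bottom with 12.1 against 54.4, while 8 of the genes lie below 40 on both arrays.

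Downstream of the cyclases, 0 of 16 measured genes of protein kinase A and its anchors passed 2-fold in heart. Of the phosphodiesterase genes 0 of 16 did. The medians of these lists were -0.001 and -0.07, against -0.05 over all genes. Over all genes 3.94% were at least 2-fold higher and 4.22% at least 2-fold lower. With so few genes, a count of 0 does not set these lists apart. Of 13 measured substrate genes and phosphatase inhibitors, 10 lay below 0 and 2 were at least 2-fold lower, with a median of -0.31. Ryr2, the calcium release channel and a target of protein kinase A, read 809 in d/d heart, against 1812 in f/f heart, 2.24-fold lower, and 2.78-fold lower on its dimmer probe set. Lipe, the hormone-sensitive lipase that adrenergic signals activate, read 42.4 in d/d heart, against 111 in f/f heart, 2.62-fold lower. It is also a fat cell marker: of the adipocyte markers 4 of 4 measured, Lipe among them, lay below 0, with a median of -0.88. Their summed signals were 3434 in d/d heart, against 3973 in f/f heart, nearly all of it Fabp4, and Adipoq was 4.47-fold lower. The part of fat cells in the difference of Lipe was not tested. Downstream of Gq, Itpr3 was 2.97-fold higher, at 34.8 in d/d heart against 11.7 in f/f heart. Prkcq was 2.02-fold lower, at 17.2 in d/d heart against 34.9 in f/f heart. Prkcq was no longer past 2-fold under 4 of 8 other settings and Itpr3 under 2. The median of the 14 genes of this list was 0.02.

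Of the genes that make, store and break down catecholamines, 6 of 8 measured lay below 0 in heart. At least 2-fold lower were 3, against 4.22% of all genes, and the median was -0.75 against -0.05 over all genes. The 2 above 0 were Maoa, at 0.57, and the noradrenaline transporter Slc6a2, at 0.38. Maob, a monoamine oxidase of the outer mitochondrial membrane, read 116 in d/d heart, against 407 in f/f heart, 3.52-fold lower. In muscle it read 264 in d/d, against 242 in f/f. Ddc, the decarboxylase that makes dopamine, was under the floor in d/d heart, against 28.6 in f/f heart, at least 3.81-fold lower, on the only 1 of its probe sets that was measured. Slc18a2, the vesicle transporter, was 2.05-fold lower, at 8.39 in d/d heart against 17.2 in f/f heart. Slc18a2 was no longer past 2-fold under 4 of 8 other settings and Ddc under 2, and the median of the list was -0.29 with 16 added to every signal. Th, which makes the dopamine precursor in all catecholamine cells, was under the floor on all 4 arrays. Dbh, which makes noradrenaline, read 24.0 in d/d heart, against 45.0 in f/f heart, 1.88-fold lower, and its dimmer probe sets ran in opposite directions. The nerve markers as a whole had 5 of 8 genes measured in heart, with 3 below 0 and summed signals of 77.3 in d/d heart, against 115 in f/f heart.

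Markers of other cells differed between the heart arrays alongside these genes. Macrophage markers lay above 0 on 6 of 6, with summed signals of 1792 in d/d heart, against 1202 in f/f heart. Fibroblast markers did so on 6 of 6, with 6042 in d/d heart, against 3485 in f/f heart, and endothelial markers on 4 of 6, with 1508 in d/d heart, against 1179 in f/f heart. Smooth muscle markers lay above 0 on 2 of 5 measured, with 1723 in d/d heart, against 1900 in f/f heart. Atrial markers lay below 0 on 5 of 6, with a median of -0.72, while their sum was 9663 in d/d heart, against 8052 in f/f heart, because Nppa was higher. Cardiac muscle markers summed to 36156 in d/d heart, against 37228 in f/f heart, with a median of -0.05. The part of these other cells in the differences of Adra1b, Grk5, Adcy7, Adcy9, Rgs2, Maob, F2r, Ednrb and Ptger4 was not tested.

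In muscle, 124 of the pathway genes were measured, of which 2 were at least 2-fold higher (1.61%) and 8 at least 2-fold lower (6.45%), with a median of -0.02. Over all genes these shares were 2.64% higher and 3.25% lower. Maoa, the other monoamine oxidase, read 83.6 in d/d muscle, against 41.7 in f/f muscle, 2.01-fold higher, and was no longer past 2-fold under 4 of 8 other settings. Pde1a was at least 2.58-fold higher on a probe set that can share sequence, and its other probe set ran the other way. Tnni3 and Mybpc3, substrates of protein kinase A in cardiac muscle, were 10.5-fold and 4.61-fold lower in d/d muscle, at 8.30 and 10.4, just above the floor. Their log2 differences of -3.39 and -2.21 were -2.20 and -1.34 with a 60th percentile floor and -2.08 and -1.28 with the offset of 16. Cardiac muscle markers, which include both, lay below 0 on 6 of 6 measured in muscle, with 4 at least 2-fold lower and a median of -1.39. Their summed signals were 3715 in d/d muscle, against 4292 in f/f muscle, carried by Actc1 and Myl3. Their part in the differences of Tnni3 and Mybpc3 was not tested. Plcb1, a phospholipase C that Gq activates, read 18.8 in d/d muscle, against 44.6 in f/f muscle, 2.37-fold lower, lost under 2 of 8 other settings. Gng4, Gng3, Pde3a, Slc6a2 and Rgs14 were between 2-fold and 3.68-fold lower, all from signals near the floor in d/d muscle, and each was lost under 2 to 4 of 8 other settings.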

How the data were processed

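The authors deposited a table of 45101 probe sets with a linear intensity on each array. The sources used here do not say how these intensity values were made from the scans. They run from 0 to 9375 and carry no detection call, and the number of arrays, 1 per group, limits the precision. Titles and tissue labels gave the groups.

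After 64 control probe sets were left out, arrays were scaled to 1 common 2% trimmed mean, which before was 66.6 and 69.2 in d/d and f/f heart and 48.2 and 51.4 in d/d and f/f muscle. Signals under the mean 40th percentile were set to it, and log2 was taken. Gene names came from the platform annotation, with symbols updated by Entrez id. Of 45037 probe sets, 34945 had 1 symbol, 932 had several and 9160 were not listed. The brightest probe set by mean log2 represents a gene. List medians need 4 measured genes.

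The steps were tested on simulated data with planted changes in 200 genes. Calculations used Python 3.11.15, pandas 2.3.3, numpy 2.4.6 and scipy 1.17.1.

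The members and the 20 gene lists, written from general knowledge of the pathway and its tissues, were chosen with earlier results of these data known. The genes named are the members, their relatives among receptors, kinases and cyclases, the pathway genes past 2-fold in a tissue, and the 2 nearest genes in pattern.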

Additional observations from a re-analysis of the deposited data

Results flagged for a closer look

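For 2 of the members the difference between d/d and f/f had opposite signs in heart and muscle, with 1 array per group, so the difference between the tissues was not tested. The muscle values of both lie within the probe set yardstick of 0.40, so their sign in muscle is not settled. Grk5 stood at 0.86 in heart and -0.22 in muscle on the log2 scale, a gap of 1.08. Adcy6 stood at -0.50 in heart and 0.13 in muscle, a gap of -0.63. Among the other pathway genes past 2-fold, those with opposite signs in the tissues, each beyond the probe set yardstick, were also taken, and these were not tested either. Adcy7 stood at 1.97 in heart and -0.82 in muscle, a gap of 2.79, and all 3 probe sets were higher in heart and lower in muscle, where 1 is a bound and 1 lies within the yardstick. Rgs2 stood at -1.61 in heart and 0.70 in muscle, a gap of -2.31. Ednrb stood at 1.37 in heart and -0.53 in muscle, a gap of 1.90. Its 3 probe sets were all higher in heart, but 1 was higher and 2 were lower in muscle, and the median over probe sets in heart was 0.64. Gng4 stood at 1.21 or more in heart, a bound with f/f heart under the floor, and at -1.88 in muscle, a gap of at least 3.09. Its heart value was 0.00 with a 60th percentile floor and with the median over probe sets. Macrophage and fibroblast markers also had opposite signs, each list with 6 of 6 above 0 in heart and 6 of 6 below 0 in muscle. The macrophage sums were 522 in d/d muscle, against 797 in f/f muscle, and the fibroblast sums 3063 against 4759. Endothelial markers lay above 0 on 4 of 6 in both tissues. The part of these cells in the signs of the genes above was not tested.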

How the results depend on the processing

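No paired analysis was possible because each group has 1 array, and for the same reason no array could be left out. Of 560 recomputed values, 478 stayed within the probe set yardstick, or within 1.5 times for a count. The heart differences of Grk5 (0.79 to 1.09), Adcy6 (-0.56 to -0.33) and Adcy5 (-0.29 to -0.06) kept their sign under all 8 settings of floor, scaling and probe set. Adra1b in heart was -1.52 with a 60th percentile floor and -1.32 with log2(signal + 16), and its heart excess in f/f mice was 4.66, 1.52 and 2.05 with the floor at the 20th and 60th percentiles and with the offset. In d/d mice its excess was 1.27 and 0.00 with these floors, and with the lower floor it stood at 1.22 in muscle. The heart excess of Adcy5 was 1.77 and 1.84 in d/d and f/f mice with the offset, and 0.47 and 0.70 with the median over probe sets. Members past 2-fold in heart numbered 2 with scaling to the median, with the median over probe sets and at 1.5-fold, and member probe sets 1 with the offset. In muscle, 1 member and 3 member probe sets passed with the floor at the 20th percentile, where 20.3% of all genes did. Pathway genes higher in heart numbered 16, 4 and 3 with the low floor, the high floor and the offset. Those lower in heart numbered 16 and 5 with the low and high floors and 6 with scaling to the median. Of all genes measured in heart, 20.3%, 5.42% and 2.14% were past 2-fold with the low floor, the high floor and the offset. These shares stand beside 8.16% by the main setting and 8.81% with scaling to the median. Those higher in muscle numbered 11, 1 and 0 with the low floor, the high floor and the offset, and 1 with no further scaling, quantile normalization, the median over probe sets or without shared-sequence probe sets. Those lower in muscle numbered 14, 3, 2 and 5 with the low floor, the high floor, the offset and the median over probe sets. Of all genes measured in muscle, 20.3%, 1.61%, 0.715% and 4.27% were past 2-fold at these settings, against 5.89% by the main one. The shares were 4.86%, 6.83% and 6.28% with no further scaling, quantile normalization and without shared-sequence probe sets. With the offset, which keeps every gene, the heart medians of the catecholamine list and of other receptors were -0.29 and 0.089. Pde1a in muscle reversed to -0.44 without shared-sequence probe sets, which leaves its other probe set. With no further scaling, 31.2% of the genes past 2-fold in muscle were higher, against 44.8%. Adcy7, Rgs2, Maob, F2r and Lipe stayed past 2-fold in heart under all 8 settings, Ryr2, Ednrb, Ptger4 and Drd2 under 7, Ddc, Itpr3 and Gng8 under 6, Gng4 under 5, Prkcq and Slc18a2 under 4, and Gna14 under 3. In muscle Tnni3 and Mybpc3 stayed under 8, Plcb1, Gng3 and Rgs14 under 6, Gng4 and Slc6a2 under 5, and Maoa, Pde1a and Pde3a under 4. The cause of the other changes was not tested.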

Other observations

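Genes of cyclic AMP handling also differed between the tissues in both genotypes, chosen here after their values were seen. Adcy2 was higher in muscle than in heart, with 13.0 and 12.5 in d/d and f/f heart, against 274 and 248 in d/d and f/f muscle. Pde1c, a calcium-activated phosphodiesterase, read 169 and 185 in d/d and f/f heart and was under the floor in both muscles. By its brightest probe set Pde4d, a phosphodiesterase specific for cyclic AMP, read 125 and 197 in d/d and f/f heart. That probe set read 917 and 1145 in d/d and f/f muscle. The other probe set of Pde4d was measured in heart but under the floor in both muscles, so the probe sets disagreed. Ppp1r1a, an inhibitor of protein phosphatase 1 that protein kinase A activates, read 15.9 and 12.2 in d/d and f/f heart, against 426 and 261 in d/d and f/f muscle.

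Short of 2-fold on the brightest probe set were 3 further genes, also chosen after their values were seen. Prkar1a, a regulatory subunit of protein kinase A, read 2253 in d/d heart, against 1426 in f/f heart, 1.58-fold higher, and 1.85-fold on its second bright probe set, while the dimmest, near the floor, was 1.31-fold lower. Agtr1a, the main angiotensin receptor, which couples to Gq, read 203 in d/d heart, against 368 in f/f heart, 1.81-fold lower. Plin5, a lipid droplet protein, was 1.78-fold and 2.10-fold lower in d/d heart on its 2 probe sets.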
